A study of Mus musculus with 78 samples.

Results

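The repeat tables of the 4-cell and 8-cell stage listed 7977 copies of DNA transposons among 461206 repeat copies, 1.73% of all. The 4-cell table held 3956 of them among 278683 copies, and the 8-cell table held 5745 among 327627 copies. They were chosen by name alone, as every copy whose subfamily name starts with URR1, Charlie, Tigger, MER5, MER20 or MER58, or is MER3. The names fell into 92 subfamilies. The start MER5 also took in 173 copies of 13 subfamilies such as MER53, MER54A and MER57E2. MER53 is a DNA transposon, and MER54A and MER57E2 are remnants of LTR retroviruses, so these 173 copies are kept apart below under the name "other MER5". Without them the median number of DNA transposon copies per blastomere was 320 in place of 333 at the 4-cell stage, and 465 in place of 475 at the 8-cell stage.

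DNA transposons move by a cut-and-paste mechanism, in which a transposase binds the inverted repeats at the ends of the element, cuts it out and inserts it elsewhere. Charlie elements belong to the hAT superfamily and once encoded a transposase, and MER3, MER5, MER20, MER58 and the rodent-specific URR1 are short hAT relatives that encode none. Tigger elements belong to the pogo branch of the Tc1/mariner superfamily. The mouse copies are old and no longer move, so reads on them report transcripts that contain a copy, such as introns, untranslated ends and unannotated transcripts, and not transposition. Which transcripts held the copies was not tested here. Several host genes descend from such transposases.

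The libraries were Smart-seq2 RNA-seq of single blastomeres from mouse embryos with 1 copy of the Brainbow 2.1 construct, the Rosa26 allele Gt(ROSA)26Sortm1(CAG-Brainbow2.1)Cle, and 1 copy of the CAG-cre/Esr1* transgene. All embryos of both stages were collected at the 2-cell stage, 46 h after the last hormone injection, kept in 4-Hydroxytamoxifen for 2 h and cultured in KSOM, so that the stages differ in the time of culture and no group is free of Cre or tamoxifen. Of the 78 samples in the labels, 36 were 4-cell and 31 were 8-cell blastomeres. The tables held 24 columns at the 4-cell stage and 26 at the 8-cell stage, none with a name that leads to a single sample, and 5 of the 8-cell columns are named NA. Columns were therefore assigned to no embryo or lineage, since neither their order nor their values were used for that, each stage was counted as 1 sample without replicates, and values are given as lowest, median and highest over blastomeres with no test between the stages.

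The values are FPKM, fragments per kilobase of the copy and per M of a total for each blastomere, the denominator. How the authors formed that total is not given in the sources used here, and it need not be all fragments of the library. Within a blastomere they rise in exact steps, from which the denominator of each blastomere and a whole number of fragments behind each value were recovered, for all 7977 DNA transposon copies. The number is the smallest that fits the values of a copy. For a copy seen in 1 blastomere it is therefore a lower bound, so that counts of single fragments below are upper bounds and counts of many fragments lower bounds. The median denominator was 13.4 M fragments at the 4-cell stage, with a range of 6.88 M to 16.9 M, where M is short for mega. It was 17.3 M at the 8-cell stage, with a lowest value of 2.34 M, a next of 12.6 M and a highest of 21.8 M. Of the cleavage-stage markers, Obox6, an oocyte and embryo homeobox gene, had 572 to 1968 FPKM in the 4-cell and 929 to 2298 FPKM in the 8-cell blastomeres. Of the 8 such markers looked up, 3 were above 1 FPKM in every 4-cell and 5 in every 8-cell blastomere, and others were low, such as Oosp1 with a median of 0 at both stages, Ooep with 0.645 and 0 FPKM and Nlrp5 with 5.06 and 0.122 FPKM. Of 5 markers of other cell types, Ptprc (blood) and Inhba (granulosa cells) were listed at neither stage. Has2, a cumulus cell gene, reached at most 0.0279 FPKM, and Col1a1, a fibroblast gene, 0.0115 FPKM in 1 blastomere of the 8-cell stage. Amh, another granulosa cell gene, reached 0.132 FPKM at the 4-cell stage and 1.64 FPKM, in 1 blastomere, at the 8-cell stage.

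Before the results, 7 blastomeres have to be set apart. In 1 blastomere of the 4-cell stage 65.2% of the DNA transposon copies above 0 rested on a single fragment, against 3.21% to 17.8% in the other 23. In 6 blastomeres of the 8-cell stage, among them the one with 2.34 M fragments, this share was 30.8% to 44.7%, against 10.1% to 20.4% in the other 20. In the 4-cell blastomere 66.4% of its DNA transposon copies were seen in no other blastomere of the stage. The 6 blastomeres of the 8-cell stage had 36 to 71 of the copies that were seen in 50% or more of the stage, whereas each of the other 20 had at least 85. The 6 are neighbouring columns of the table, and whether they share an embryo was not tested. Main counts over all DNA transposons and named copies that moved by over 1.5 times without the 7 blastomeres, or lost a 2-fold difference, are given both ways.

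More DNA transposon copies were above 0 in the 8-cell than in the 4-cell blastomeres, by a difference smaller than the spread between blastomeres. A 4-cell blastomere had 127 to 616 such copies, with a median of 333. An 8-cell blastomere had 91 to 897, with a median of 475, and 19 of the 26 lay above the 4-cell median. All 24 of the 4-cell blastomeres lay inside the 8-cell range. Depth differs between the stages, so each blastomere was also thinned, in expectation, to 6.88 M fragments, which leaves out the shallowest 8-cell blastomere. The expected numbers were then 118 to 553 with a median of 326 at the 4-cell stage, and 145 to 779 with a median of 419 at the 8-cell stage. Without the 7 blastomeres with many single fragments, the medians at full depth were 351 and 540.5 copies.

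**Figure D1:**
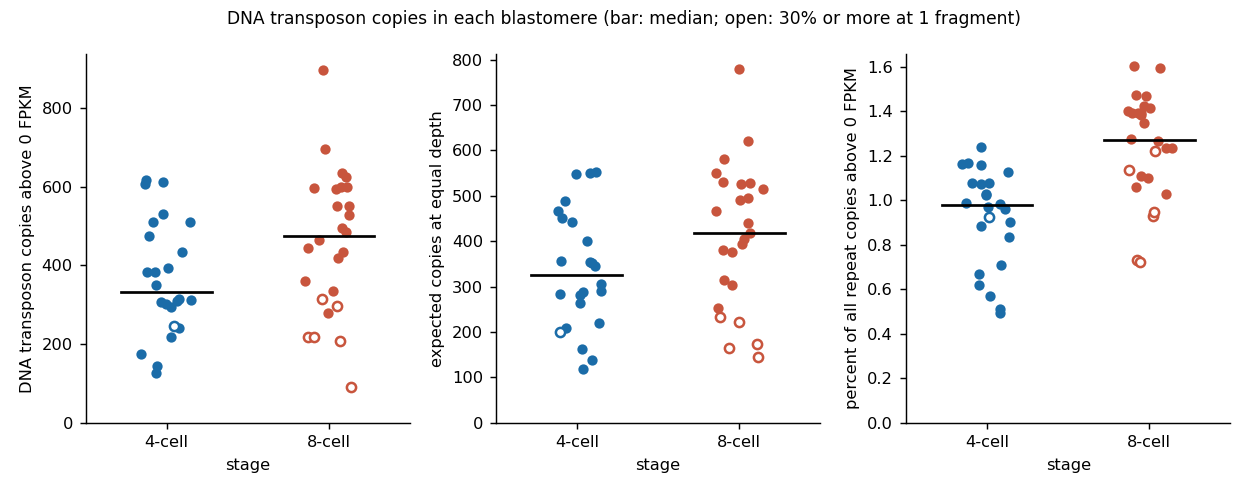
DNA transposon copies above 0 FPKM in each blastomere (left), their expected number at equal depth (middle) and their share of all repeat copies above 0 FPKM (right), with the median as a bar and open points for blastomeres with 30% or more of their copies at 1 fragment. The 8-cell medians of 475, 419 and 1.27% lie above the 4-cell medians of 333, 326 and 0.977%, and the ranges overlap in all 3 panels.

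The share of DNA transposons among all repeat copies of a blastomere moved the same way, although the median number of all repeat copies did not, at 36838 per 4-cell and 36262 per 8-cell blastomere. DNA transposons made up 0.492% to 1.24% of the copies above 0 in the 4-cell blastomeres, with a median of 0.977%. They made up 0.722% to 1.6% in the 8-cell blastomeres, with a median of 1.27%, and 22 of the 26 lay above the 4-cell median. At equal depth the medians were 1.06% and 1.45%. The ancient MIR and L2 copies went from a median of 1.88% to 2.28%. The share of B1 copies, a young SINE family, was 16.4% and then 15.5%, and that of the MERVL retrovirus with its MT2_Mm ends 2.79% and then 2.11%.

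Counted in fragments, the blastomeres of a stage were more alike. DNA transposon copies took 1339 to 2289 fragments per M of the denominator in the 4-cell blastomeres, with a median of 1913. They took 1620 to 3016 in the 8-cell blastomeres, with a median of 2323, and 21 of the 26 lay above the 4-cell median. Of all fragments on repeat copies, the DNA transposons held 1.08% to 1.90% at the 4-cell stage, median 1.61%, and 1.54% to 2.34% at the 8-cell stage, median 2.01%. Here 24 of the 26 blastomeres of the 8-cell stage lay above the 4-cell median. Fragments were recovered for 914794 of 927535 detections of repeat copies at the 4-cell and 906378 of 933656 at the 8-cell stage. The rest are missing from the total and none is a DNA transposon, so these shares can be too high. How much this differs between the stages was not tested. Across blastomeres, the number of DNA transposon copies went with the number of all other repeat copies, with Pearson's r of 0.87 (Spearman's rho 0.78) over the 24 and 0.93 (0.92) over the 26 blastomeres, values that share library and depth. Against the denominator r was 0.09 (rho -0.03) and 0.57 (0.31).

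Most DNA transposon copies were seen in a single blastomere. At the 4-cell stage 2760 of 3956 copies were above 0 in exactly 1 of the 24 blastomeres, 69.8% (95% exact interval 68.3% to 71.2%, for counting error only). At the 8-cell stage it was 3998 of 5745 in exactly 1 of 26, 69.6% (68.4% to 70.8%). Over all repeat copies the shares were 54.8% and 59.8%, and over MIR and L2 copies 67.5% and 70.0%. MERVL and MT2_Mm copies were seen in a single blastomere in 13.1% and 19.9% of cases. The intervals treat copies as independent and are no test between the stages. Leaving out the columns named NA gave 72% at the 8-cell stage. With at least 2 fragments required, they were 65.9% and 64.7%.

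Many copies seen once had more than 1 fragment. Of the 2760 copies in a single 4-cell blastomere, at most 829 had 1 fragment there (30%) and at least 702 had 20 or more (25.4%). Of the 3998 in a single 8-cell blastomere, at most 1367 had 1 fragment (34.2%), at least 1275 had 20 or more (31.9%) and at least 219 had 100 or more. The highest such count was 486 fragments on URR1B_dup468_chr4 in 1 blastomere of the 4-cell stage, a copy singled out after its value was seen. By the same bounds, of all repeat copies seen once 15.3% and 21.7% had 20 or more fragments, and of the MIR and L2 copies seen once 27.4% and 32.7% had. Taken over all detections, a DNA transposon copy above 0 had a median of 16 fragments at the 4-cell stage and 23 at the 8-cell stage, against 5 and 7 for all repeat copies, 4 and 5 for B1, and 18 and 25 for MIR and L2. Without molecular identifiers, several fragments can stem from 1 molecule.

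**Figure D2:**
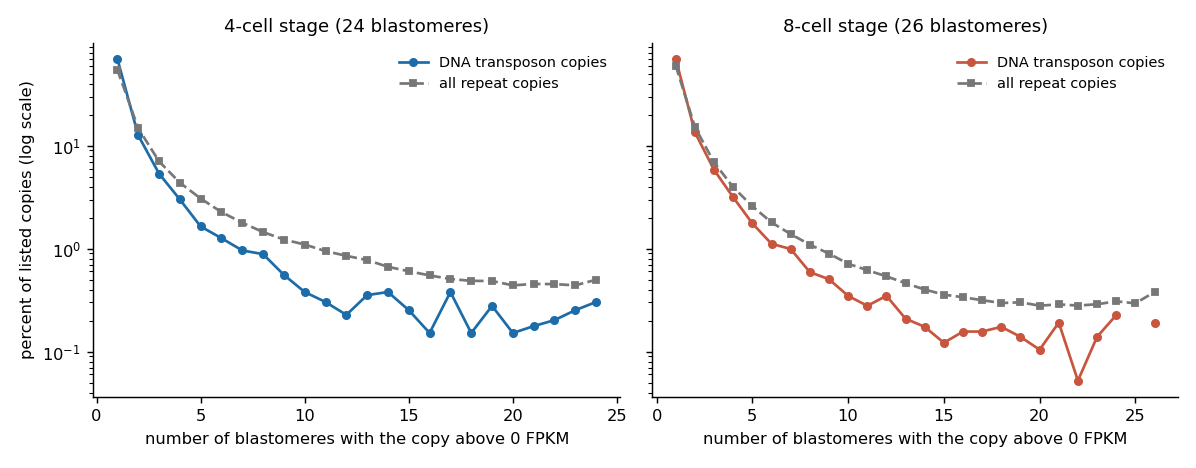
Percent of listed copies (log scale) against the number of blastomeres in which a copy is above 0 FPKM, for DNA transposon copies (coloured) and all repeat copies (grey), with no point where a count is 0. DNA transposons start higher, at 69.8% and 69.6% against 54.8% and 59.8% in 1 blastomere, and lie below all copies from 2 blastomeres on.

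At the other end, 12 DNA transposon copies were above 0 in every 4-cell blastomere (0.303%) and 11 in every 8-cell blastomere (0.191%), against 0.499% and 0.379% of all repeat copies. In 50% or more of the blastomeres were 129 copies at the 4-cell stage (3.26%) and 117 at the 8-cell stage (2.04%), against 7.21% and 4.59% of all repeat copies. These few carried most of the signal. The 129 held 71.6% of all DNA transposon fragments of the 4-cell stage and the 117 held 61.6% of those of the 8-cell stage, whereas the copies seen once held 8.09% and 9.62%. Over the stage, 50% of the fragments lay on 19 copies at the 4-cell and on 34 copies at the 8-cell stage. Without the blastomeres with many single fragments, 20 copies were in every 4-cell and 23 (0.444%) in every 8-cell blastomere. No share of all repeat copies is given for that setting, and the 0.499% and 0.379% above, from all blastomeres, are no background for it.

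Of the 7977 copies, 1724 were listed at both stages, which is 43.6% of the 4-cell and 30% of the 8-cell copies, against 52.1% and 44.3% of all repeat copies. All 129 copies in 50% or more of the 4-cell blastomeres were also listed at the 8-cell stage, and all 117 in the other direction, as were 99.6% and 98.8% of all repeat copies seen that often. Of the copies seen in 1 blastomere of the 4-cell stage 29.8% were listed at the 8-cell stage, and of those in 1 blastomere of the 8-cell stage 17.2% were listed at the 4-cell stage, against 31.96% and 25.6% of all repeat copies. For copies in 2 or more blastomeres these shares were 75.4% and 59.2%, and over all repeat copies they were 76.4% and 72.2%.

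The copies were spread over the chromosomes. The Y chromosome held 1 copy at each stage, 0.0253% and 0.0174% against 0.147% and 0.168% of all repeat copies. Chromosome 6 held 6.12% against 4.99% at the 4-cell stage and 5.26% against 5.12% at the 8-cell stage. Chromosome 7 held 4.85% against 5.96% at the 4-cell stage and 4.96% against 5.76% at the 8-cell stage. Chromosome 2 held the most at both stages, 7.56% of the 4-cell and 7.76% of the 8-cell copies, against 7.76% and 7.58% of all repeat copies. The X chromosome held 113 copies at the 4-cell stage, 2.86% against 3.69% of all copies, and 247 at the 8-cell stage, 4.3% against 4.12%. A copy seen in 3 or more blastomeres had a median length of 164 bases, recovered from the steps of its values. Such a length can fall below the true one, most easily for copies seen in few blastomeres. The length did not grow with the number of blastomeres: the median was 165 bases for copies in 3 to 5, 165 in 6 to 24 and 151 in 25 or more of the 50 blastomeres.

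URR1 gave the most copies and Charlie the most fragments. URR1, with only 2 subfamilies, had 1244 copies at the 4-cell stage and 1878 at the 8-cell stage, and 22 to 291 of them were above 0 in a blastomere. Its medians were 85 copies per 4-cell and 135.5 per 8-cell blastomere, 1.59 times as many. It took a median of 278 fragments per M (97.1 to 424) at the 4-cell stage and of 436 (211 to 679) at the 8-cell stage. Charlie, with 38 subfamilies, had 717 and 1012 copies and medians of 72 and 91 copies per blastomere. It took a median of 627 fragments per M (216 to 851) at the 4-cell and 703 (514 to 851) at the 8-cell stage, more than URR1 at both although it had fewer copies. Much of this lead lay on Charlie8_dup31_chr11, Charlie5_dup55_chr11 and Charlie6_dup3_chr7, the last singled out after its values were seen. Without these 3 copies the medians of Charlie were 219 and 332 fragments per M, below those of URR1 with all its copies. Without its own 3 highest copies URR1 had medians of 199 and 326, so the order was then kept with a small lead. Tigger, with 27 subfamilies, had 657 and 929 copies, and medians of 60 and 85 per blastomere. Its fragments per M were 297 in median at the 4-cell stage and 285 at the 8-cell stage. Without its 3 highest copies of each stage they were 196 and 212. The copies left out were not the same at both stages, so these 2 values give no direction between the stages.

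The short hAT groups followed the same order at both stages. MER5 in the narrow sense, with 5 subfamilies, had 558 and 786 copies, medians of 53.5 and 60.5 copies per blastomere and 270 and 348 fragments per M. MER58 had 295 and 435 copies, with medians of 32 and 42 per blastomere and 115 and 150 fragments per M. MER20 had 267 and 413 copies, with medians of 24.5 and 32.5 per blastomere and 120 and 192 fragments per M. MER3, the rarest, had 123 and 183 copies, medians of 8 and 14.5 per blastomere and 30.4 and 60.03 fragments per M. The other MER5 copies numbered 95 and 109, had a median of 12 per blastomere at both stages, and took 123 and 98.2 fragments per M. Without the 3 highest copies of each group and stage, MER5 took 102 and 144 fragments per M and MER58 83.6 and 120. MER20 then took 65.3 and 103, and MER3 13.7 and 22.2. The other MER5 copies took 29.1 and 31.8. Of these groups only MER20 had the same copies left out at both stages, so the other pairs give no direction between the stages. In every group the ranges over blastomeres overlapped between the stages.

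**Figure D3:**
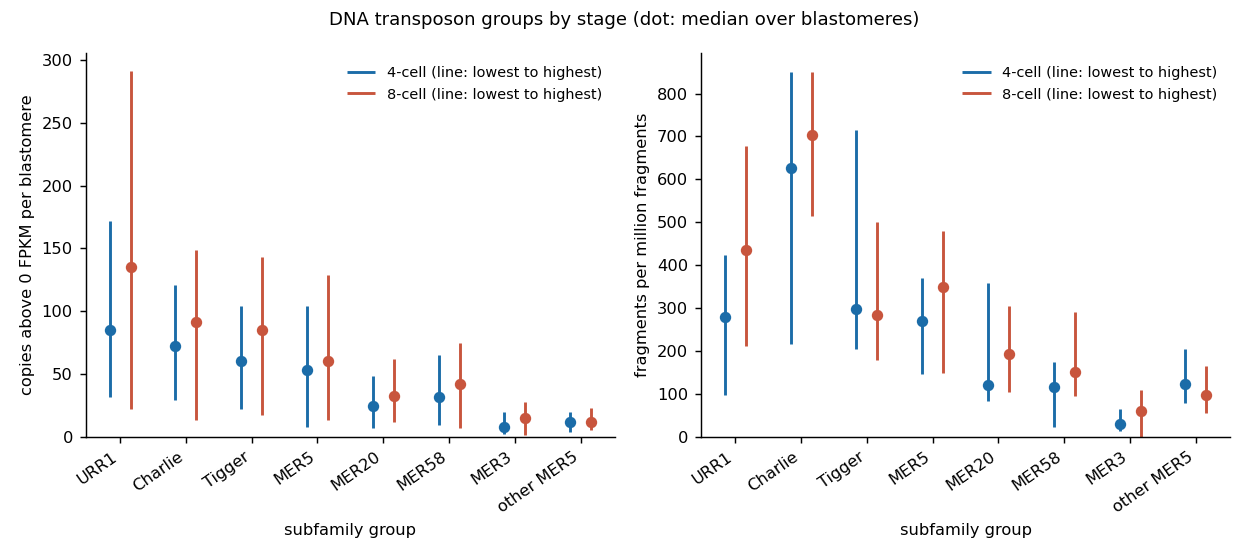
Copies above 0 FPKM per blastomere (left) and fragments per M of the denominator (right) for each group of subfamilies, with the median as a dot and a line from the lowest to the highest of 24 4-cell or 26 8-cell blastomeres. URR1 leads in copies, at medians of 85 and 135.5, and Charlie in fragments, at medians of 627 and 703 per M, and all ranges overlap between the stages.

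The share of copies seen once differed somewhat between groups. At the 4-cell stage it was highest for URR1, 75.4% (72.9% to 77.8%), and lowest for MER58, 61.02% (55.2% to 66.6%). The groups were picked as the extremes of 8, so this is no test. At the 8-cell stage URR1 was again highest with 72.2% (70.1% to 74.2%) and Charlie lowest with 66.1% (63.1% to 69.0%). None of the URR1 copies was in every 4-cell blastomere and 1 of them was in every 8-cell blastomere, whereas Charlie had 5 and 4 such copies. Charlie also had 4.18% and 2.96% of its copies in 50% or more of the blastomeres, against 1.69% and 0.745% for URR1. No MER58 or MER3 copy was in every blastomere of a stage.

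By subfamily, 12 names had 100 or more copies at a stage, and all of them had more copies at the 8-cell stage. URR1B had 653 and 974 copies, with medians of 48 and 70 per blastomere, and URR1A 591 and 904, with medians of 37.5 and 59.5. MER5A had 262 and 383 copies, MER20 proper 243 and 365, MER5B 171 and 246, and MER5A1 116 and 141. MER5A1 was the only one of the 12 whose median per blastomere was not higher at the 8-cell stage, with 10 and 9.5 copies. MER58A had 128 and 199 copies and MER58B 138 and 191. Of the Tigger and Charlie names, Tigger7 had 161 and 256 copies, Charlie1a 136 and 211, and Tigger5b 60 and 111, and the median of Charlie1a went from 7.5 to 15.5 per blastomere. MER3 has been given above. The share seen once ran from 61.7% for MER58A to 78.9% for Tigger7 at the 4-cell stage and from 66.6% for MER20 to 73.6% for URR1A at the 8-cell stage.

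Some of these copies were detected in every blastomere of both stages. MER5A_dup495_chr9, a copy of 66 bases on chromosome 9, was above 0 in all 50 blastomeres, with 736 to 3665 FPKM and a median of 2058 at the 4-cell stage and 654 to 4294 FPKM with a median of 2861 at the 8-cell stage. Each of its 4-cell values rested on 621 fragments or more. Charlie8_dup31_chr11, of 200 bases, had 375 to 1601 FPKM with a median of 1062 at the 4-cell and 600 to 2767 FPKM with a median of 914 at the 8-cell stage. It alone took a median of 11.6% of the DNA transposon fragments of a 4-cell blastomere (3.93% to 16.7%) and 7.66% of those of an 8-cell blastomere (4.88% to 24.8%). For both copies the ranges of the stages overlapped widely. At the 4-cell stage the shorter MER5A copy had a median of 1609.5 fragments and the Charlie8 copy 2809. FPKM is per kilobase of the copy, so it does not rank copies of unlike length by their fragments.

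Of the other copies seen in all 50 blastomeres, Tigger12_dup1_chr17 had a median of 335 FPKM (136 to 668) at the 4-cell and 298 FPKM (169 to 856) at the 8-cell stage. MER20_dup312_chr11 had medians of 206 FPKM (82.1 to 363) and 247 FPKM (27.3 to 431). Charlie5_dup46_chr15 had medians of 65.8 FPKM (18.99 to 189) and 42.0 FPKM (6.46 to 183). The sixth, Charlie17a_chr17, with medians of 9.2 and 7.43 FPKM, falls outside the 10 named per stage and was singled out after its values were seen. Their means at the 2 stages were within a factor of 2 for each of the 5 listed among the 10.

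Charlie5_dup55_chr11 was in all 26 blastomeres of the 8-cell stage, with a median of 1093 FPKM (581 to 1592), and in 23 of 24 at the 4-cell stage, with a median of 902 FPKM and a highest of 1722. Tigger14a_dup11_chr6 was in all 24 blastomeres of the 4-cell stage, with a median of 1187 FPKM (338 to 1707), and in 24 of 26 at the 8-cell stage, with a median of 691 FPKM. MER54A_dup2_chr1, an LTR copy by its name, was in 23 and 26 blastomeres with medians of 563 and 481 FPKM, and MER57E2_dup3_chr3, another, was in 24 and 23 with medians of 132 and 73.2 FPKM. MER53_dup20_chr1 was in 23 and 26 with medians of 63.7 and 64.3 FPKM. Charlie24_dup19_chr3 was in 24 and 24 with medians of 127 and 177 FPKM, and MER20_dup339_chr6 was in 24 and 23 with medians of 97.9 and 74.9 FPKM.

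In the rest of these most often detected copies the means differed by 2-fold or more over all blastomeres. URR1B_dup333_chr3, the one URR1 copy in every 8-cell blastomere, had a median of 268 FPKM there (95.7 to 614) and of 87.7 FPKM in the 4-cell blastomeres, where 20 of 24 were above 0 and the highest had 574. Its mean was 2.03 times as high at the 8-cell stage, a log2 ratio of 1.02, which was 0.98 and thus under 2-fold without the blastomeres with many single fragments, and 0.99 on the common scale of all repeat copies. MER20_dup51_chr7 was in 23 and 26 blastomeres with medians of 62.3 and 150 FPKM, and its mean was 2.10 times as high at the 8-cell stage. Charlie11_chr18 went the other way, from all 24 blastomeres with a median of 56.7 FPKM (7.42 to 244) to 16 of 26 with a median of 10.2 FPKM and a highest of 174. Its mean was 2.53 times as high at the 4-cell stage. The values of the stages overlapped for all 3 copies.

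Copy by copy, 52 DNA transposon copies were above 0 in a share of blastomeres that was at least 25 percentage points higher at the 8-cell stage, and 48 in one that was as much higher at the 4-cell stage. That is 0.652% and 0.602% of the 7977, where the background over all 461206 copies was 1.23% and 2.88%. Most copies are in too few blastomeres to reach such a difference. Among the copies in at least 25% of the blastomeres of a stage, 395 of them DNA transposons, the 52 and 48 were 13.2% and 12.2%, against a background of 10.9% and 25.6%. Every copy with such a difference passes this filter by construction, so these shares are a description. The 52 included 15 of URR1, 12 of Charlie, 9 of Tigger and 7 of MER5, and the 48 included 10 of MER5, 9 of Tigger, 8 of Charlie and 7 of URR1. Without the blastomeres with many single fragments 124 copies were higher at the 8-cell stage, with a background of 2.07%, and 42 at the 4-cell stage, with a background of 2.87%.

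In level, the same 395 copies are described, which include those that passed the filter through the stage where they are high, as do the copies of the background. Of them, 127 had a mean FPKM at least 2-fold higher at the 8-cell stage, 32.2% against a background of 20.4%, and 87 had one at least 2-fold higher at the 4-cell stage, 22.03% against a background of 46%. The 2 tables were deposited separately, but the values of both are in the same steps of fragments per kilobase and M. The median log2 ratio of the means, 8-cell over 4-cell, was 0.31 over the 367 copies with a mean above 0 at both stages, with the middle 50% from -0.68 to 1.26, and it was -0.74 over all such repeat copies. In the share of blastomeres the 395 copies leaned slightly the other way, with a median difference of -1.92 percentage points, 190 copies higher at the 8-cell stage and 199 at the 4-cell stage, against a median of -11.5 over all repeat copies. The median log2 ratio was -0.05 for MIR and L2, -0.60 for B1 and -2.49 for MERVL and MT2_Mm, a retrovirus known for its burst at the 2-cell stage. Scaling every blastomere to the same sum over all repeat copies gave 0.24 for DNA transposons and -0.80 for all copies. Without the blastomeres with many single fragments the medians were 0.41 and -0.55. Of then 496 copies, 209 were at least 2-fold higher at the 8-cell stage, with a background of 26.3%. The other way it was 85, with a background of 43.1%.

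Among the groups, 39 of the 91 URR1 copies that could be compared were at least 2-fold higher at the 8-cell stage and 19 at the 4-cell stage. For Charlie it was 26 and 12 of 74, for Tigger 20 and 18 of 72, for MER5 20 and 17 of 64 and for MER58 11 and 6 of 37. MER20 had 6 and 10 of 33, MER3 5 and 1 of 11, and the other MER5 copies 0 and 4 of 13. The shares over all repeat copies, 20.4% and 46%, are the background for these counts too, and the 6 and 10 of 33 for MER20 are below both. These counts have no test.

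**Figure D4:**
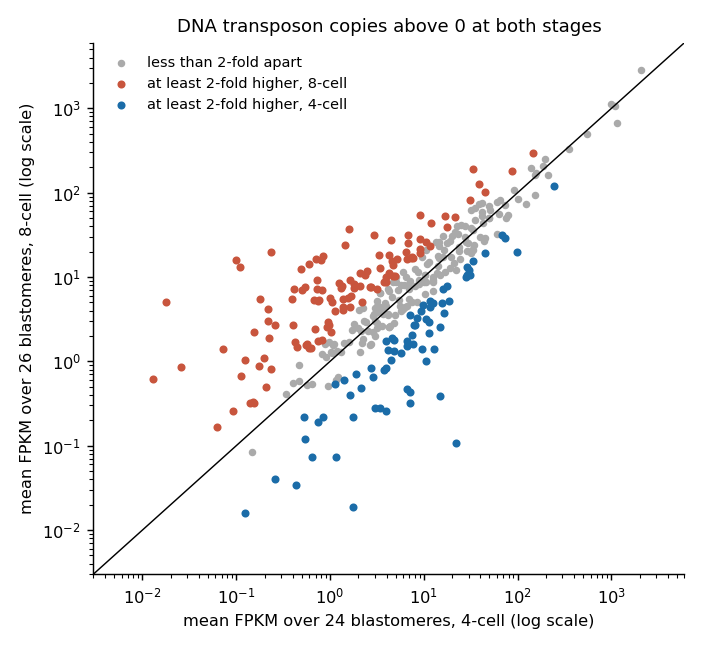
Mean FPKM over the 26 8-cell blastomeres against that over the 24 4-cell blastomeres (both log scale) for the 367 DNA transposon copies in at least 25% of the blastomeres of a stage and above 0 at both, with the line of equality. Of these, 115 (red) are at least 2-fold higher at the 8-cell and 71 (blue) at the 4-cell stage, and the copies of highest mean lie close to the line.

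The 5 copies with the largest gain in the share of blastomeres came from 5 groups. MER20_dup17_chr17 was above 0 in 4 of 24 blastomeres at the 4-cell stage, with a highest value of 19.5 FPKM, and in 18 of 26 at the 8-cell stage, with a median of 20.2 and a highest of 174 FPKM. Its mean went from 1.61 to 36.9 FPKM. Charlie1a_dup105_chr17 was in 3 and then 16 blastomeres, with highest values of 17.6 and 78.4 FPKM and means of 0.795 and 15.9 FPKM. MER3_dup238_chr2 was in 9 and then 21 blastomeres, its median went from 0 to 106 FPKM and its highest from 293 to 872 FPKM. The log2 ratio of its means was 2.54, and 1.87 without the blastomeres with many single fragments. In all 3 copies some blastomeres of each stage were at 0, so the ranges overlapped.

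MER5A_dup576_chr2, a copy of 41 bases, was in 6 and then 19 blastomeres, with means of 9.18 and 54.6 FPKM. Tigger15a_dup42_chr2 was in 8 and then 20 blastomeres, with means of 4.59 and 15.3 FPKM. Together with MER3_dup238_chr2 these lie on chromosome 2, and the other 2 on chromosome 17. In the 8-cell blastomeres the highest fragment counts of the 5 copies ran from 112 to 1318, and with 2 fragments required the 5 gains were 43.3 to 56.7 percentage points, against 43.3 to 52.6 with any fragment.

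In the other direction, URR1B_dup906_chr5 was above 0 in 14 of 24 blastomeres of the 4-cell stage, with a median of 9.56 and a highest of 113 FPKM, and in 1 of 26 of the 8-cell stage, at 9.95 FPKM from 42 fragments. MER5A_dup311_chr9 was in 12 and then in 1 blastomere, with a highest of 150 FPKM at the 4-cell stage and 2.78 FPKM, from 8 fragments, in that 1 blastomere. Its mean went from 22.1 to 0.107 FPKM. Tigger7_dup257_chr10, a long copy of 533 bases, was in 21 and then 9 blastomeres, with medians of 12.4 and 0 FPKM and means of 16.6 and 3.73 FPKM. Tigger1_chr7 was in 21 and then 10 blastomeres, with means of 6.62 and 1.504 FPKM, a log2 ratio of -2.14 that was -3.31 without the blastomeres with many single fragments. MER58B_dup42_chr12 was in 15 and then 3 blastomeres but had at most 6 fragments at the 4-cell stage and 3 at the 8-cell stage, and with 2 fragments required its difference was -12.8 percentage points in place of -51.0.

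**Figure D5:**
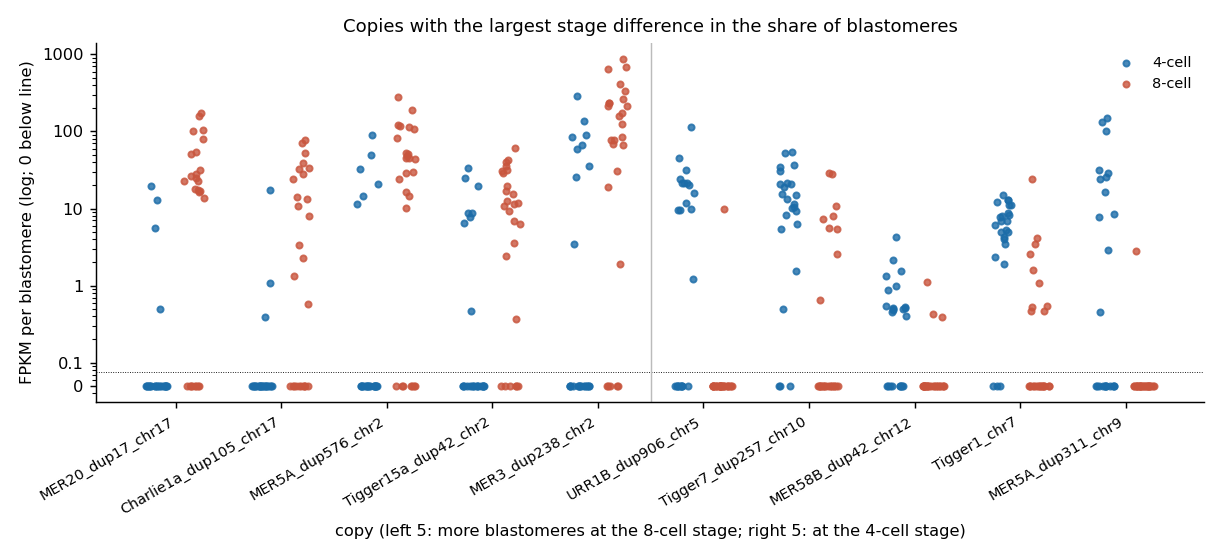
FPKM in each blastomere (log scale, with values of 0 below the dotted line) for the 5 copies with the largest gain (left) and the 5 with the largest loss (right) in the share of blastomeres from the 4-cell (blue) to the 8-cell stage (red). MER20_dup17_chr17 goes from 4 to 18 blastomeres above 0 and URR1B_dup906_chr5 from 14 to 1, and every copy has blastomeres at 0 at both stages.

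Most of the host genes derived from transposases were not above 1 FPKM in 50% or more of the blastomeres of a stage. Of the 27 such genes looked up, all of which were in the annotation, 22 were listed in the 4-cell and 23 in the 8-cell gene table. At the 4-cell stage 10 were above 1 FPKM in 50% or more of the blastomeres, and at the 8-cell stage 8 were. The share over all genes is not given beside these counts, so they do not show whether such genes were lower than others. None was above 1 FPKM in every blastomere of a stage. Rag1 and Rag2, the recombinase of lymphocytes that descends from a transposase, were listed at neither, nor were Tigd4 and Pgbd5.

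Of the 9 genes derived from Tigger and pogo elements, Pogz, a zinc finger protein of heterochromatin, was the only one above 1 FPKM in 50% or more of the blastomeres. It had a median of 4.89 FPKM (0.0384 to 9.83) at the 4-cell and of 4.52 FPKM (0 to 15.9) at the 8-cell stage. Tigd2, Tigd3, Tigd5, Jrk, Jrkl, Pogk and Cenpb, the last a binder of centromeric DNA, had a median of 0 at both. Of the 5 hAT-derived genes, Zbed3 had medians of 11.1 and 3.28 FPKM and Zbed4 of 6.59 and 3.78 FPKM, and the means of both were 2.01 and 2.12 times as high at the 4-cell stage. Gtf2ird2, which carries a Charlie8-like transposase domain, was above 1 FPKM in 7 of the 24 blastomeres of the 4-cell stage, reaching 30.1 FPKM, and was at most 0.0189 FPKM at the 8-cell stage.

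The 4 highest medians of the 27 at either stage were those of THAP genes, whose DNA-binding domain is shared with the P element transposase. Thap4 had medians of 31.7 and 29.04 FPKM, Thap1 of 27.3 and 18.96 FPKM and Thap7 of 20.8 and 16.9 FPKM. Thap11, a transcription factor needed by the early embryo, had a median of 37.6 FPKM (0 to 232) at the 4-cell and of 16.3 FPKM (0 to 47.4) at the 8-cell stage, and its mean was 3.11 times as high at the 4-cell stage. Of the 14 listed genes above 1 FPKM in at least 25% of the blastomeres of a stage, 6 (Zbed3, Zbed4, Gtf2ird2, Thap2, Thap11 and Thap12) had a mean at least 2-fold higher at the 4-cell and 1 (Naif1) at the 8-cell stage, where the background over all such genes was 15.5% and 10.1%. With 14 genes and 1 sample a stage this is a description of these libraries.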

How the data were processed

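Single blastomeres were sequenced with Smart-seq2 and Nextera XT. Per the labels and methods, the authors aligned reads to mm10 with STAR 2.5.1b, kept unique alignments, ran HTSeq-count over RefSeq genes and RepeatMasker copies, and deposited 4 tables, a gene and a repeat table for each stage. All values are FPKM as deposited. The unit of the repeat tables was settled here from their steps, and in 48 of 48 columns the same relative denominators were found in the gene tables. Counting unique alignments can leave reads of young, near-identical copies uncounted, which was not tested.

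Stage came from each table, whose numbers of columns and genes are those the study gives for it. No column was matched to an embryo or lineage, so no test was run. A copy counted as detected above 0 FPKM, and one absent from a table as 0 in it. Fragments and lengths were recovered in lowest terms (Python 3.11.15, numpy 2.4.6, pandas 2.3.3, scipy 1.17.1), so for a copy seen once both may be too low. They were found for 457908 of the 461206 copies, and the rest are missing from sums of fragments and thinned numbers. None of the rest is a DNA transposon, so the shares of DNA transposons in these sums and thinned numbers can be too high. The steps were tested on simulated data. Shares have exact binomial intervals. Reads carry no molecular identifiers.

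The named copies are, per stage, the 10 above 0 in the most blastomeres (ties by median), the 5 with the largest difference in the share of blastomeres in each direction, and 3 more that the text says were singled out. Named subfamilies have 100 or more copies at a stage. Gene identifiers were matched to RefSeq of GRCm38.p6. The copies, lists and rules were chosen with earlier results of these data known. Alternatives were higher thresholds, leaving out columns, strict names, other sizes of difference and a common scale, and, added after seeing the data, thinning, at least 2 fragments, leaving out the 7 blastomeres with many single fragments, and leaving out the 3 copies of most fragments of a group. Genome positions of the copies were not used here, so the genes that hold them are not named.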

Additional observations from a re-analysis of the deposited data

How the results depend on the processing

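Of the 74 recomputations of the main values, 59 stayed close to the value in the report. Close means within the spread between blastomeres, the counting interval or a factor of 1.5. The median log2 ratio of the means stayed positive, with 0.24 on the common scale and 0.41 without the 7 blastomeres. The order of the stages turned for some values without the columns named NA. Then 39 copies passed 25 percentage points in favour of the 8-cell stage and 57 the other way, in place of 52 and 48. Of all repeat copies 1.04% and 2.92% then did. The 8-cell share seen once was then 72%, above the 4-cell share of 69.8%, in place of 69.6%. Counting only values of at least 1 FPKM lowered the share of copies seen in 1 blastomere to 67.6% (4-cell) and 65.7% (8-cell) and raised the median share of DNA transposons among all copies to 1.26% and 1.63%. Requiring 2 fragments gave 65.9% and 64.7% seen once, thinning to equal depth gave 67.1% for the 8-cell stage, and leaving out the columns named NA gave 72% there. With a limit of 50 percentage points, 1 copy was higher at the 8-cell and 3 were higher at the 4-cell stage (0.0971% and 0.201% of all repeat copies were), and with a limit of 4-fold 67 and 48 of 395 copies were, against 10.7% and 29.6% of all repeat copies. Without the 7 blastomeres with many single fragments, 124 copies passed 25 points in favour of the 8-cell stage and 42 the other way. Of all repeat copies 2.07% and 2.87% did. The 124 and 42 are given as counts only, so they show no excess over these shares. Past 2-fold, 209 of 496 copies favoured the 8-cell stage and 85 the 4-cell stage, against 26.3% and 43.1% of all repeat copies. In that setting 0.444% of the copies were in every 8-cell blastomere, with no share of all repeat copies to set beside it. Without the 3 copies of most fragments of a group, Charlie took 219 and 332 fragments per M. Tigger then took 196 and 212 and the other MER5 copies 29.1 and 31.8. In both groups the copies left out differed between the stages, so these pairs give no direction between the stages. MER5, MER20 and MER3 also moved at both stages, to the values given above. The cause was not tested where the setting itself does not show it. No paired analysis was possible because no column name states an embryo or replicate, and no replicate was left out for the same reason. Each stage was counted as 1 sample, so replicate errors and the variation between embryos were not estimated. Single fragments lay behind at most 14.99% of the 4-cell and 17.1% of the 8-cell detections, so a copy at 0 is one not detected at this depth. Fewer transcripts and less RNA recovered from a blastomere cannot be told apart.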
